A study of Mus musculus with 6 samples.

Results

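Fatty acid oxidation genes and the target genes of the peroxisome proliferator-activated receptors (PPARs) were described in crypts of the mouse intestine. The list names 38 genes of fatty acid activation, carnitine transport, β-oxidation and PPAR control, and each was found by its symbol among the 24736 genes of the expression table. All 38 had a mean of at least 1 TPM (length-scaled transcript abundance) over the 6 libraries and were tested together with the other genes that passed this filter, 12268 in all.

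The study asked what the loss of the transcriptional co-repressor Mtg16, encoded by Cbfa2t3, does to the intestinal epithelium. Crypts were released with EDTA from the whole length of the gut of male mice at 12 weeks of age, and total RNA was sequenced after ribosomal RNA depletion. There were 3 WT mice and 3 Mtg16−/− mice, described as biological triplicates, untreated apart from the knockout, with no strain given in the labels. The labels call the knockout CRISPR-induced, whereas the methods of the study describe a line of Mtg16−/− mice obtained from others, and this difference was not resolved.

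Fatty acids are bound to coenzyme A by acyl-CoA synthetases and carried into mitochondria as carnitine esters. There, a cycle of dehydrogenation, hydration, a further dehydrogenation and thiolysis shortens the chain and releases acetyl-CoA, while peroxisomes run a parallel pathway for very long and branched chains. PPARα and PPARδ sense fatty acids and switch on many of these genes, and in the gut the pathway is known both in absorptive enterocytes, which take up dietary fat, and in stem cells at the crypt base, whose self-renewal is supported by Cpt1a-dependent oxidation.

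Values are listed for replicates 1, 2 and 3 of each genotype in that order. Differences are log2 fold changes (log2 FC) of log2(TPM + 1), libraries labelled Mtg16−/− minus WT, with their standard errors (SE). Ranges of a log2 FC are those with each library left out in turn. A gene was called at an adjusted p under 0.1 in a limma test across all 12268 genes.

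Cbfa2t3 (chr8:122625136-122699332 in GRCm38), the targeted gene, was at 3.67, 6.69 and 4.52 TPM in WT and 4.62, 6.43 and 3.23 TPM in the libraries labelled Mtg16−/− (log2 FC -0.056 ± 0.27, adjusted p = 0.937). The genotypes overlapped, so the level of this transcript did not tell the libraries apart and the groups rest on their labels. With each library left out in turn, its log2 FC ranged from -0.26 to 0.15.

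WT replicate 1 stood apart from the other WT libraries. The 18 mature enterocyte markers summed to 33684, 12480.4 and 15078 TPM in WT and 13238, 7622 and 6283 TPM in the libraries labelled Mtg16−/−, so that WT replicate 1 had over 2 times the enterocyte signal of any other library. Of the 38 members, 21 (55.3%) had their highest level of the 6 libraries in WT replicate 1, against 31.4% of all tested genes. Differences are therefore also given without that library for many genes. Replicate 1 labelled Mtg16−/− was likewise the highest of its own group for this sum. A fit without WT replicate 1 keeps that library, so it does not balance the enterocyte signal between the genotypes. No fit left out the replicates 1 of both genotypes together. In bulk RNA, fewer cells of a type and less RNA per cell cannot be told apart.

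No member was called: limma found 0 of 38 at an adjusted p under 0.1, and 4 of 12268 genes overall (0.0326%). At an unadjusted p under 0.05 there were 12 members, against 14.6% of all tested genes. Of these, 7 were lower in the libraries labelled Mtg16−/− (8.05% of all genes) and 5 were higher (6.53% of all genes). The lower ones were Creb3l3, Esrra, Ppard, Ppargc1b, Acsl5, Cpt2 and Angptl4, and the higher ones were Ppara, Cpt1a, Acads, Eci1 and Eci2. After quantile normalization the split was 4 lower and 7 higher, and that of all tested genes was 6.68% and 8.43%.

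The genotypes did not overlap for 15 members. All 3 libraries labelled Mtg16−/− lay below all 3 WT libraries for 9 members (11.1% of all tested genes did so) and above them for 6 (9.94% of all tested genes). An exact permutation test of 3 mice against 3 gives any gene without overlap the smallest two-sided p of this design, 0.1, so it adds nothing to these counts. The median log2 FC of the 38 members was -0.026, against -0.026 for all tested genes, with 19 members above 0 and 19 below. Without WT replicate 1 the medians were 0.075 and -0.029, and the number of members lower at an unadjusted p under 0.05 was 4 (6.13% of all tested genes). That number was also 4 without WT replicate 3 (6.04% of all tested genes) and without replicate 2 labelled Mtg16−/− (4.94%), and it was 2 without replicate 3 labelled Mtg16−/− (4.07%). The number higher at this limit was 3 without replicate 1 labelled Mtg16−/− (6.78% of all tested genes), 2 without replicate 2 labelled Mtg16−/− (3.44%) and 2 without WT replicate 2 (5.09%).

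**Figure D1:**
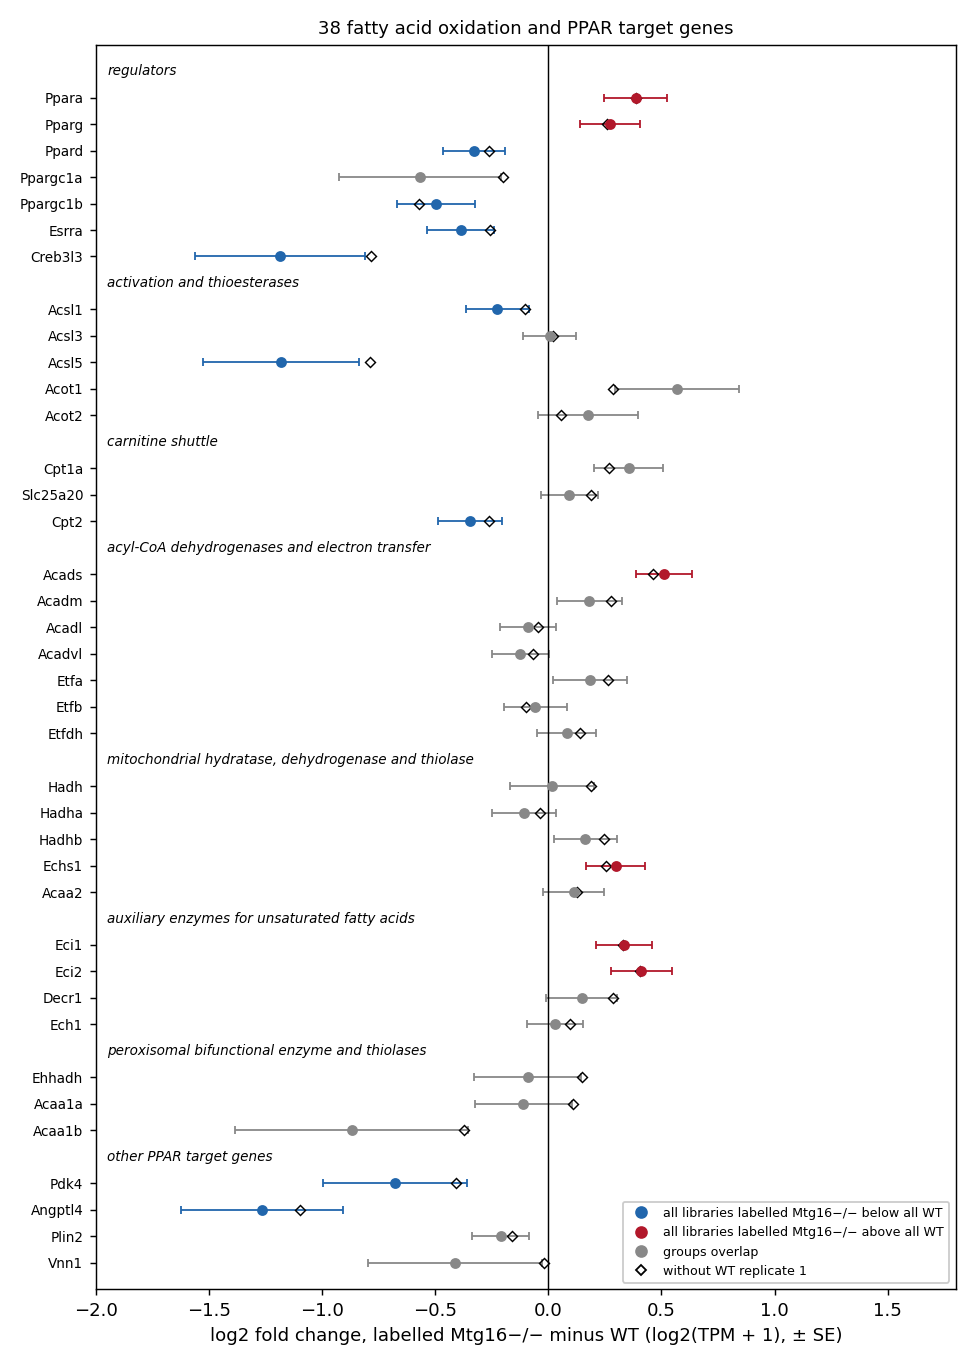
Log2 fold change of log2(TPM + 1) with SE for the 38 members, grouped by role (3 WT and 3 libraries labelled Mtg16−/−), coloured by whether the genotypes overlap. Open diamonds give the value without WT replicate 1; Angptl4, Creb3l3 and Acsl5 have the most negative values, while the enzymes for unsaturated fatty acids lie at or above 0.

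Among the regulators, the receptors differed in direction, and of the other regulators Ppargc1b, Esrra and Creb3l3 were lower in the libraries labelled Mtg16−/− without overlap. Ppara (chr15:85734910-85806851), the fatty acid receptor that drives oxidation genes, was at 17.1, 15.2 and 18.8 TPM in WT and 22.8, 24.7 and 20.2 TPM in the libraries labelled Mtg16−/− (log2 FC 0.39 ± 0.14, adjusted p = 0.297). Every library labelled Mtg16−/− was above every WT library, and the difference was 0.39 without WT replicate 1. Pparg, best known for adipocyte differentiation, was less abundant, with 10.7 ± 0.67 TPM in WT and 13.2 ± 0.95 TPM in the libraries labelled Mtg16−/− (SD, n = 3), and its genotypes did not overlap either (log2 FC 0.27 ± 0.13). Ppard, the receptor with the highest level of the 3, was lower, with 136 ± 11.3 TPM in WT and 108 ± 14.2 TPM in the libraries labelled Mtg16−/− (log2 FC -0.33 ± 0.14). Its highest library labelled Mtg16−/− was at 124 TPM, just under the lowest WT library at 128 TPM. Summed over the 3 receptors Ppard made up most of the TPM in each library.

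Esrra (chr19:6910977-6922048), an orphan receptor that switches on genes of mitochondrial respiration, had the highest mean TPM of the regulators, at 180.3, 138 and 138 TPM in WT and 128, 112 and 106 TPM in the libraries labelled Mtg16−/− (log2 FC -0.39 ± 0.15, adjusted p = 0.311). The genotypes did not overlap, and the log2 FC was -0.26 without WT replicate 1, the highest library. Ppargc1a (chr5:51454249-52115853), a coactivator of mitochondrial biogenesis, was at 35.1, 13.7 and 18.4 TPM in WT and 19.6, 13.8 and 9.41 TPM in the libraries labelled Mtg16−/− (log2 FC -0.57 ± 0.36, adjusted p = 0.476). Here the genotypes overlapped: WT replicate 1 was far above the rest, and the difference was -0.20 without it. The related coactivator Ppargc1b had a different pattern, with 36.6 ± 4.91 TPM in WT and 25.8 ± 5.14 TPM in the libraries labelled Mtg16−/− and no overlap (log2 FC -0.50 ± 0.17). WT replicate 3, not replicate 1, was its highest library, and its log2 FC was -0.57 without WT replicate 1.

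Creb3l3 (chr10:81084329-81098872), a membrane-bound transcription factor of liver and small intestine that controls lipid genes together with PPARα, was at 208, 76.8 and 105 TPM in WT and 75.5, 48.6 and 37.8 TPM in the libraries labelled Mtg16−/− (log2 FC -1.19 ± 0.38, adjusted p = 0.279). All 3 WT libraries were above the 3 others, although WT replicate 2 and replicate 1 labelled Mtg16−/− were close. Without WT replicate 1 the log2 FC of Creb3l3 was -0.79. Of the 7 regulators, 5 were below 0 and 2 above, with a median of -0.39.

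Of the genes of fatty acid activation, Acsl5 was both the most abundant and the most different. Acsl5 (chr19:55251861-55296628), a long-chain acyl-CoA synthetase that is highly expressed in absorptive cells, was at 1106, 439 and 543 TPM in WT and 381, 243 and 243 TPM in the libraries labelled Mtg16−/− (log2 FC -1.18 ± 0.34, adjusted p = 0.263). Its mean over the 6 libraries was the highest of all 38 members, although Hadh was above it in each library labelled Mtg16−/−. WT replicate 1 held over 2 times the level of any other library, and the remaining WT libraries were still above every library labelled Mtg16−/−. The log2 FC was -0.79 without WT replicate 1. The other synthetases differed less: Acsl1 was at 35.5 ± 5.64 TPM in WT and 30.01 ± 0.85 TPM in the libraries labelled Mtg16−/−, without overlap (log2 FC -0.23 ± 0.14, -0.10 without WT replicate 1). Acsl3, found at the endoplasmic reticulum and on lipid droplets, was level across the libraries, between 16.6 and 17.8 TPM (log2 FC 0.0058 ± 0.12, range -0.016 to 0.030).

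Acot1 (chr12:84009502-84017670), a cytosolic thioesterase that releases free fatty acids from acyl-CoA, was at 3.49, 8.74 and 5.75 TPM in WT and 8.25, 8.33 and 10.2 TPM in the libraries labelled Mtg16−/− (log2 FC 0.57 ± 0.27, adjusted p = 0.377). It had the most positive log2 FC of the members, but WT replicate 2 lay inside the range of the other genotype, and without WT replicate 1, its lowest library, the log2 FC was 0.28. Its mitochondrial relative Acot2 was at 5.64 ± 1.75 TPM in WT and 6.39 ± 1.08 TPM in the libraries labelled Mtg16−/− (log2 FC 0.17 ± 0.22, range 0.054 to 0.38), with overlap. The pair share much sequence: 23.9% of the 50-base windows of the longest coding transcript of Acot1 also occur in transcripts of Acot2, so their split of reads is uncertain.

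The carnitine shuttle split within itself. Cpt1a (chr19:3322326-3385735), the rate-limiting transferase of the outer mitochondrial membrane, was at 82.9, 101 and 97.6 TPM in WT and 135, 128 and 100.3 TPM in the libraries labelled Mtg16−/− (log2 FC 0.36 ± 0.15, adjusted p = 0.339). Replicates 1 and 2 labelled Mtg16−/− were above all WT libraries, while replicate 3 lay between WT replicates 2 and 3. Cpt2, its partner on the inner membrane, was lower, with 91.3 ± 9.49 TPM in WT and 71.8 ± 9.65 TPM in the libraries labelled Mtg16−/− and no overlap, although its nearest libraries were 83.7 and 82.8 TPM (log2 FC -0.35 ± 0.14). Slc25a20, the translocase between them, was at 39.7 ± 4.82 TPM in WT and 42.2 ± 1.87 TPM in the libraries labelled Mtg16−/− (log2 FC 0.092 ± 0.13, range 0.037 to 0.19). The summed TPM of the 3 genes was 230.01, 221 and 223 TPM in WT and 262, 235 and 208 TPM in the libraries labelled Mtg16−/−.

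**Figure D2:**
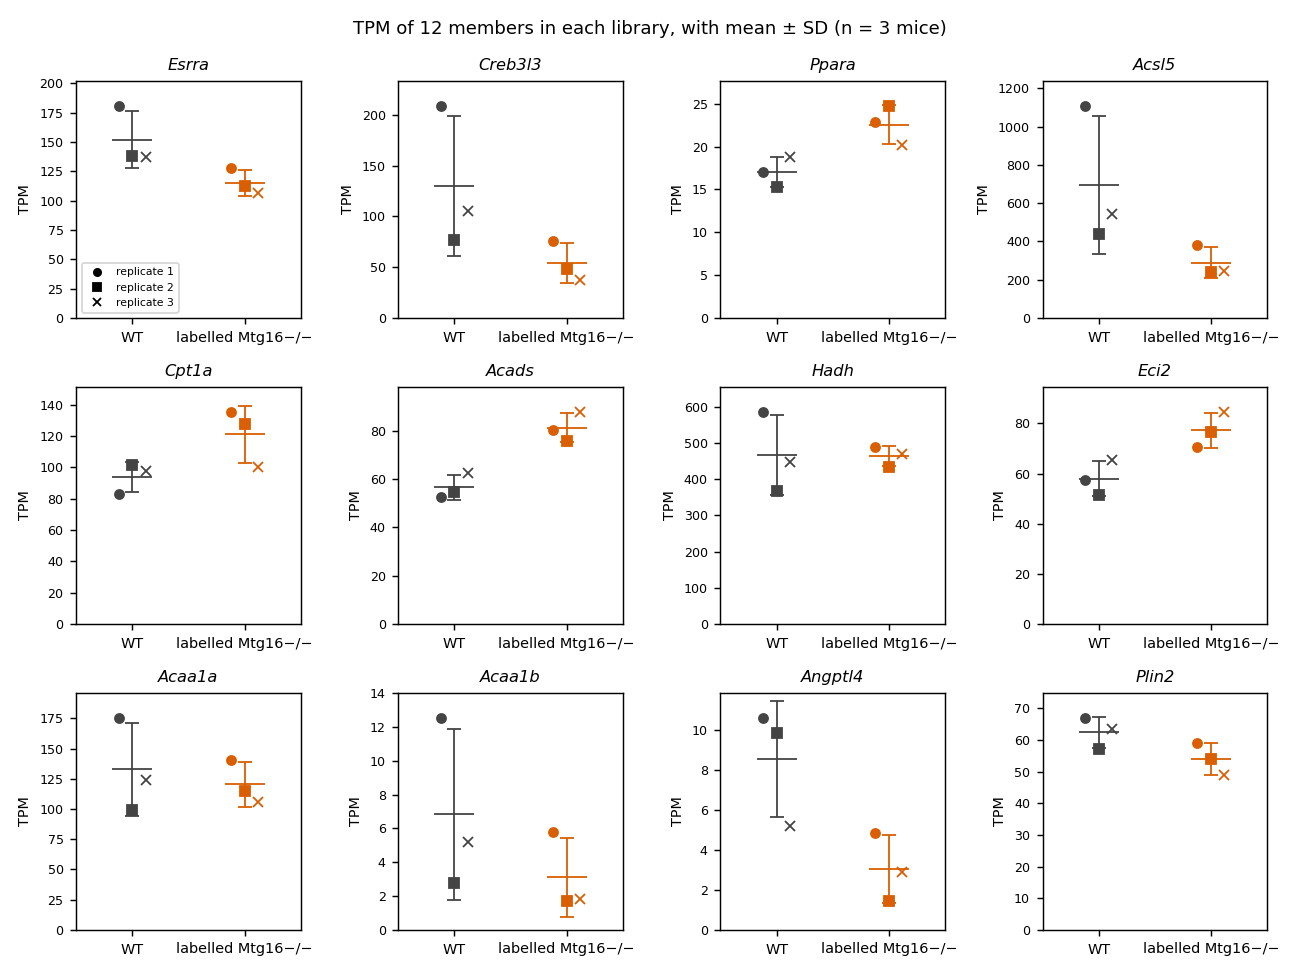
TPM of 12 members in each library (symbols mark replicates 1, 2 and 3), with the mean and SD of the 3 mice of each genotype; every vertical axis starts at 0. Acads and Eci2 are higher in every library labelled Mtg16−/−, Creb3l3, Acsl5 and Angptl4 are lower in every one, and for Hadh and Acaa1a the genotypes overlap.

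Among the acyl-CoA dehydrogenases, the short-chain enzyme had the largest difference. Acads (chr5:115110299-115119346), specific for short chains, was at 52.6, 54.8 and 62.5 TPM in WT and 80.1, 75.7 and 87.5 TPM in the libraries labelled Mtg16−/− (log2 FC 0.51 ± 0.12, adjusted p = 0.234). This was the smallest adjusted p of the members. The genotypes were well separated, and the log2 FC lay between 0.46 and 0.58 when each library in turn was left out. Acadm, for medium chains, was at 94.6 ± 15.6 TPM in WT and 106 ± 1.41 TPM in the libraries labelled Mtg16−/− (log2 FC 0.18 ± 0.14, range 0.043 to 0.28), and WT replicate 2 was the low library. Acadl, for long chains, was at 88.1 ± 9.77 TPM in WT and 82.4 ± 3.26 TPM in the libraries labelled Mtg16−/− (log2 FC -0.090 ± 0.12, range -0.18 to -0.040). Acadvl, for very long chains and bound to the inner membrane, was at 141 ± 15.99 TPM in WT and 129 ± 4.44 TPM in the libraries labelled Mtg16−/− (log2 FC -0.12 ± 0.13, range -0.22 to -0.068). The genotypes overlapped for these last 3 genes, and Acadl and Acadvl had a sign above 0 after quantile normalization. Whether the short-chain and the long-chain genes differ from each other was not tested.

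Etfb (chr7:43444072-43457800), a subunit of the flavoprotein that collects electrons from all acyl-CoA dehydrogenases, was the most abundant of this group, at 212, 206 and 261 TPM in WT and 208, 207 and 235 TPM in the libraries labelled Mtg16−/− (log2 FC -0.057 ± 0.14, adjusted p = 0.869). The replicates 3 of both genotypes were the highest libraries and the other 4 were alike. The sign of this difference was positive after quantile normalization and without WT replicate 3, with a range from -0.12 to 0.049. Of the 50-base windows of Etfb, 67.3% also occur in transcripts of Gm45233, so its share of reads is uncertain. Its partner subunit Etfa was at 168 ± 23.7 TPM in WT and 191 ± 29.2 TPM in the libraries labelled Mtg16−/− (log2 FC 0.18 ± 0.16, range 0.063 to 0.26). Etfdh, which hands the electrons to ubiquinone, was at 87.7 ± 11.02 TPM in WT and 92.3 ± 3.26 TPM in the libraries labelled Mtg16−/− (log2 FC 0.081 ± 0.13, range -0.027 to 0.14). For both, the genotypes overlapped. For the 7 genes of this group the median log2 FC was 0.081 (0.14 without WT replicate 1).

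Of the 5 genes for the later steps of the mitochondrial cycle, 4 were above 0 and 1 below. Hadh (chr3:131233419-131272101), the hydroxyacyl-CoA dehydrogenase for shorter chains, was at 585, 368 and 449 TPM in WT and 489, 435 and 469 TPM in the libraries labelled Mtg16−/− (log2 FC 0.015 ± 0.18, adjusted p = 0.978). WT replicates 1 and 2 were the highest and the lowest of the 6 libraries, and the sign of the difference turned with the library left out, from -0.14 to 0.19. Hadha and Hadhb encode the subunits of the trifunctional protein for long chains and lie side by side on chromosome 5. Hadha was at 154 ± 20.3 TPM in WT and 143 ± 11.5 TPM in the libraries labelled Mtg16−/− (log2 FC -0.11 ± 0.14, range -0.22 to -0.039, above 0 after quantile normalization). Hadhb was at 129 ± 18.6 TPM in WT and 144 ± 5.73 TPM in the libraries labelled Mtg16−/− (log2 FC 0.16 ± 0.14, range 0.042 to 0.24). Both overlapped between genotypes. Transcripts of the pseudogene Gm13910 hold 61.5% of the 50-base windows of Hadhb, and this limits how surely reads are given to it. Echs1, the short-chain hydratase, was the one gene of this group without overlap, with 104 ± 12.3 TPM in WT and 128 ± 9.57 TPM in the libraries labelled Mtg16−/− (log2 FC 0.30 ± 0.13), but its nearest libraries, 118 and 119 TPM, were almost equal. The thiolase Acaa2 was at 153 ± 12.98 TPM in WT and 166 ± 19.6 TPM in the libraries labelled Mtg16−/− (log2 FC 0.11 ± 0.13, range 0.018 to 0.17). Summed over its 5 genes this group was at 1152, 843 and 1031 TPM in WT and 1053, 1009 and 1073 TPM in the libraries labelled Mtg16−/−, with overlap.

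All 4 auxiliary enzymes, which prepare double bonds of unsaturated fatty acids for the cycle, were above 0, with a median log2 FC of 0.24. Eci2 (chr13:34977748-35027115), an enoyl-CoA isomerase of peroxisomes and mitochondria, was at 57.2, 51.4 and 65.3 TPM in WT and 70.4, 76.8 and 84.4 TPM in the libraries labelled Mtg16−/− (log2 FC 0.41 ± 0.13, adjusted p = 0.281). Each library labelled Mtg16−/− was above each WT library, and the log2 FC was 0.40 without WT replicate 1. Eci1, the mitochondrial isomerase, showed the same separation, with 95.8 ± 6.97 TPM in WT and 121 ± 11.5 TPM in the libraries labelled Mtg16−/− (log2 FC 0.33 ± 0.12). Ech1 (chr7:28825338-28832239), a dienoyl-CoA isomerase, was the most abundant of the 4, at 205, 169 and 187 TPM in WT and 197, 181 and 192 TPM in the libraries labelled Mtg16−/− (log2 FC 0.028 ± 0.12, adjusted p = 0.930). Its genotypes overlapped, and the range was -0.044 to 0.10, negative without WT replicate 2. Decr1, the dienoyl-CoA reductase, was at 60.7 ± 11.6 TPM in WT and 66.7 ± 5.13 TPM in the libraries labelled Mtg16−/− (log2 FC 0.15 ± 0.16, range 0.011 to 0.28), also with overlap. Eci3, a neighbouring paralog of Eci2 looked at after its values were seen, was at 61.2, 19.2 and 24.3 TPM in WT and 22.2, 10.6 and 11 TPM in the libraries labelled Mtg16−/−, with overlap (log2 FC -1.10 ± 0.44, -0.61 without WT replicate 1). Transcripts of Eci3 hold 7.19% of the 50-base windows of Eci2.

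The peroxisomal members had no separation between genotypes, and the log2 FC of each was higher with WT replicate 1 left out. Acaa1a (chr9:119341028-119350296), a peroxisomal thiolase, was at 175, 99.4 and 124 TPM in WT and 141, 115 and 105 TPM in the libraries labelled Mtg16−/− (log2 FC -0.11 ± 0.22, adjusted p = 0.831). WT replicate 1 was the highest and WT replicate 2 the lowest library, and the log2 FC was 0.11 without WT replicate 1 and also positive after quantile normalization. Acaa1b (chr9:119148043-119157093), its less abundant paralog, was at 12.5, 2.75 and 5.21 TPM in WT and 5.78, 1.68 and 1.84 TPM in the libraries labelled Mtg16−/− (log2 FC -0.87 ± 0.51, adjusted p = 0.447). Replicates 2 and 3 labelled Mtg16−/− were below all WT libraries, but replicate 1 was above WT replicates 2 and 3, and the log2 FC was -0.37 without WT replicate 1. The paralogs share 34.0% of the 50-base windows of Acaa1a, which leaves the division of reads between them uncertain. Ehhadh, the bifunctional enzyme and a classical PPARα target, was at 55.95 ± 18.6 TPM in WT and 50.9 ± 7.53 TPM in the libraries labelled Mtg16−/− (log2 FC -0.092 ± 0.24, range -0.33 to 0.15), and 0.15 without WT replicate 1.

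Of the other PPAR target genes, all 4 were below 0, with a median log2 FC of -0.54 (-0.29 without WT replicate 1). Angptl4 (chr17:33774900-33781575), a secreted inhibitor of lipoprotein lipase, had the most negative value of the members. It was at 10.6, 9.84 and 5.21 TPM in WT and 4.85, 1.47 and 2.88 TPM in the libraries labelled Mtg16−/− (log2 FC -1.27 ± 0.36, adjusted p = 0.263). The genotypes were separated by a small gap between WT replicate 3 and replicate 1 labelled Mtg16−/−, and the log2 FC ranged from -1.57 to -0.95 as single libraries were left out. Pdk4 (chr6:5483351-5496278), the kinase that turns off pyruvate dehydrogenase and so favours fat over glucose, was near the lower limit of the table, at 3.72, 1.59 and 1.83 TPM in WT and 1.58, 0.49 and 1.2 TPM in the libraries labelled Mtg16−/− (log2 FC -0.68 ± 0.32, adjusted p = 0.368). Its genotypes nearly touched, at 1.59 TPM in WT replicate 2 against 1.58 TPM in replicate 1 labelled Mtg16−/−, the log2 FC was -0.41 without WT replicate 1, and the scale used understates differences at such levels.

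Plin2 (chr4:86626910-86670217), the coat protein of lipid droplets, had the highest mean TPM of these targets, at 66.8, 57.1 and 63.3 TPM in WT and 58.9, 53.9 and 48.8 TPM in the libraries labelled Mtg16−/− (log2 FC -0.21 ± 0.13, adjusted p = 0.449). The ranges of the genotypes overlapped. Vnn1, a pantetheinase, was at 42.5 ± 22.4 TPM in WT and 30.8 ± 13.4 TPM in the libraries labelled Mtg16−/− (log2 FC -0.41 ± 0.39, range -0.73 to -0.017). WT replicate 1 was its highest library at 68.2 TPM, and the log2 FC was -0.017 without it.

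**Figure D3:**
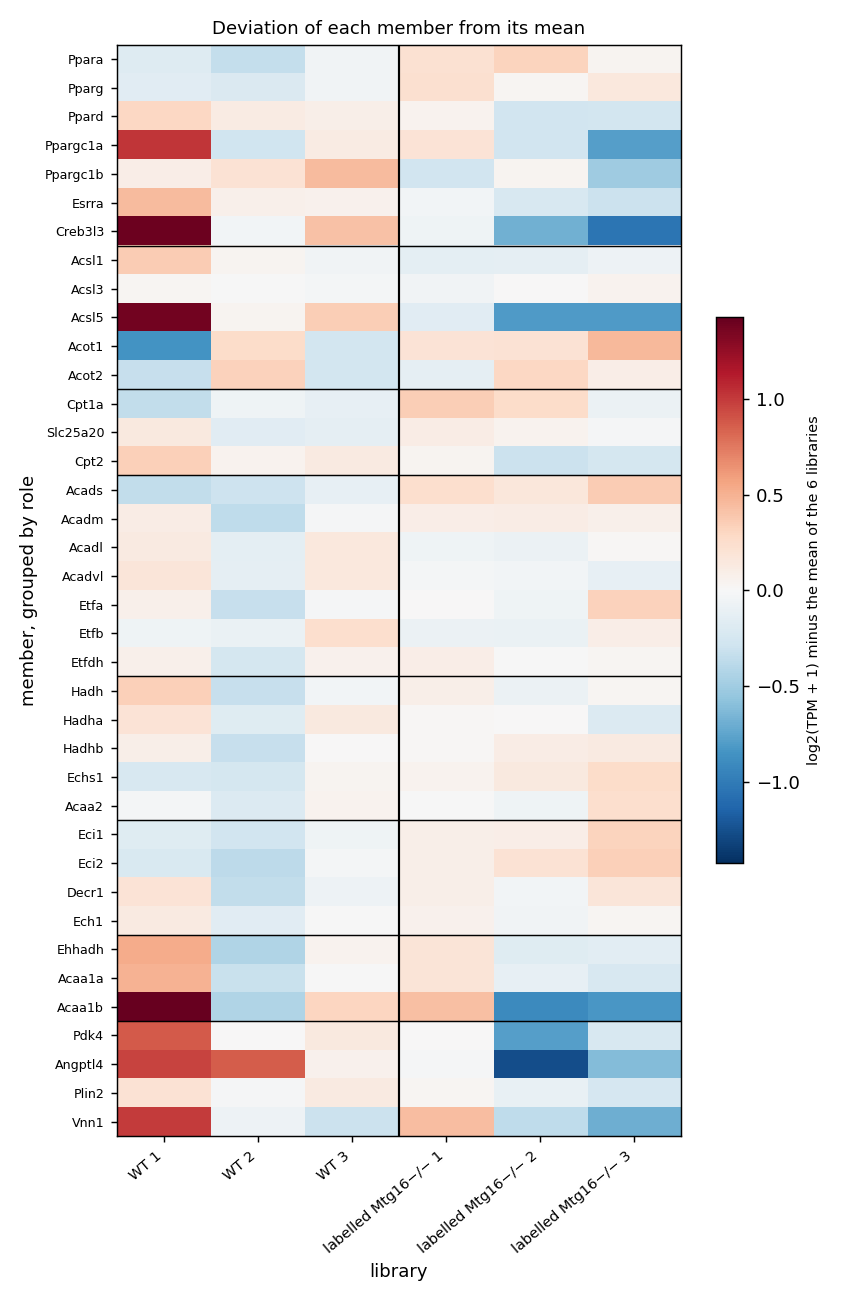
Deviation of log2(TPM + 1) of each member (rows, grouped by role) from its mean over the 6 libraries (columns, 3 WT and 3 labelled Mtg16−/−). WT replicate 1 is the highest library for 21 of the 38 members, among them Creb3l3, Acsl5 and Acaa1b.

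Part of the spread between libraries of 1 genotype was shared by many members. WT replicate 1 was the highest WT library for 25 of 38 members (43.8% of all tested genes), and WT replicate 2 was the lowest library of all 6 for 19 members (15.5% of all tested genes). Within the libraries labelled Mtg16−/−, replicate 1 was the highest of its group for 21 members (33.1% of all tested genes). The median deviation of the members from their mean over 6 libraries was 0.14 in WT replicate 1 and -0.16 in WT replicate 2 on the log2 scale, a gap wider than any between the libraries labelled Mtg16−/−. The summed TPM of all 38 members was 4929, 3345 and 3948 TPM in WT and 3814, 3433 and 3562 TPM in the libraries labelled Mtg16−/−, and the genotypes overlapped.

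Of 87 other genes of the pathway, 73 passed the filter. In the main fit limma called 0 of 73, and at an unadjusted p under 0.05 there were 10 lower and 5 higher (8.05% and 6.53% of all tested genes). Calls of these genes with the replicate number as a block, where 9.79% of all genes were called, are not given here. Their median log2 FC was -0.17, and -0.066 without WT replicate 1. Without overlap were 7 on the lower and 9 on the higher side (11.1% and 9.94% of all tested genes). Fabp1 (chr6:71199879-71205034), the liver-type fatty acid binding protein and a known PPAR target, had the most negative value, at 5065, 1642 and 2061 TPM in WT and 996, 411 and 659.98 TPM in the libraries labelled Mtg16−/− (log2 FC -1.99 ± 0.46, adjusted p = 0.225). Without WT replicate 1 its log2 FC was -1.51, and the genotypes stayed apart. Cidec (chr6:113424634-113435760), which enlarges lipid droplets, was at 54.6, 19.9 and 28.96 TPM in WT and 12.02, 6.86 and 5.83 TPM in the libraries labelled Mtg16−/− (log2 FC -1.88 ± 0.37, adjusted p = 0.172), again with no overlap. Its log2 FC was -1.49 without WT replicate 1.

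Slc27a4, a fatty acid transport protein, was next, with 252 ± 127 TPM in WT and 119 ± 51.96 TPM in the libraries labelled Mtg16−/− (log2 FC -1.04 ± 0.39, -0.66 without WT replicate 1). Cpt1b, the muscle form of the outer transferase, was low, with 7 ± 4.34 TPM in WT and 3.17 ± 1.897 TPM in the libraries labelled Mtg16−/− (log2 FC -0.90 ± 0.42, -0.49 without that library). In both the genotypes overlapped, since replicate 1 labelled Mtg16−/− lay above the lowest WT library. Of the genes of uptake and binding 6 of 7 were below 0, and of carnitine supply and malonyl-CoA control 7 of 7. Of other acyl-CoA synthetases and thioesterases 5 of 8 were below 0, and of other peroxisomal oxidation 14 of 16. Of all 12268 tested genes, 6581 were below 0. The median log2 FCs of these 4 groups were -0.27, -0.32, -0.17 and -0.29. Without WT replicate 1 they were -0.14, -0.21, -0.012 and -0.11.

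Cd36, the fatty acid translocase, was at 15.9, 3.16 and 6.04 TPM in WT and 6.76, 4.98 and 5.45 TPM in the libraries labelled Mtg16−/− (log2 FC -0.24 ± 0.45, adjusted p = 0.821). Its range was -0.70 to 0.31, and the sign turned without WT replicate 1. Cyp4a10, an ω-hydroxylase strongly induced through PPARα in liver, did not pass the filter, with 0.95, 0.46 and 0.38 TPM in WT and 0.15, 0.1 and 0.61 TPM in the libraries labelled Mtg16−/−. Also under the filter were 13 other genes, of which Acot5, Cyp4a14, Cyp4a31 and Plin1 were listed at 0 in all 6 libraries.

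Among the other pathway genes, 2 dehydrogenases of branched-chain acyl-CoA had the most positive values. Ivd (chr2:118861959-118882909), which acts on isovaleryl-CoA from leucine, was at 22.8, 29.4 and 33.7 TPM in WT and 40.8, 50.96 and 41.4 TPM in the libraries labelled Mtg16−/− (log2 FC 0.63 ± 0.17, adjusted p = 0.263). Acadsb (chr7:131410601-131446211), which acts on the product of isoleucine, was at 6.7, 8.28 and 10.1 TPM in WT and 12.3, 13.2 and 14.4 TPM in the libraries labelled Mtg16−/− (log2 FC 0.62 ± 0.17, adjusted p = 0.263). Both were higher in every library labelled Mtg16−/−, and without WT replicate 1 the log2 FC was 0.47 for Ivd and 0.49 for Acadsb. In the group of other acyl-CoA dehydrogenases and Hsd17b10, 7 of 8 genes were above 0. Of these, 5 were without overlap, Hsd17b10 among them (9.94% of all tested genes). The median log2 FC of the group was 0.33, and 0.23 without WT replicate 1. Of the other PPAR targets 9 of 10 were below 0, and of the partners of PPAR receptors 8 of 12. Their median log2 FCs were -0.33 and -0.14, and -0.26 and -0.064 without WT replicate 1.

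Markers of cell types moved along with several members, and their part in the differences was not tested. Of all tested genes, 11.1% were lower and 9.94% higher without overlap. Of the 18 mature enterocyte markers, led by Apoa1, all were below 0 (median log2 FC -1.02, -0.62 without WT replicate 1) and 6 were without overlap, as were Creb3l3, Acsl5, Fabp1 and Cidec. The 6 markers of the proximal small intestine, of which Fabp1 is the most abundant, summed to 5222, 1755 and 2218 TPM in WT and 1096, 506 and 764 TPM in the libraries labelled Mtg16−/−. Among them Pdx1 (log2 FC -1.36 ± 0.33), Gata4 (-0.42 ± 0.12) and Onecut2 (-1.004 ± 0.28), transcription factors of the proximal gut, were lower without overlap, while the other 2 overlapped. Fabp1 made up most of the sum of this list in each library. Genes listed for the ileum, led on average by Fabp6, summed to 3146, 2674 and 1628 TPM in WT and 2780.1, 2291 and 1336 TPM in the libraries labelled Mtg16−/−. Of these, 2 of 4 were above 0, among them Fabp6 (log2 FC 0.34 ± 0.42, range -0.0017 to 0.73). The other 2 were below 0, of which Guca2b (-1.11 ± 0.38, -0.68 without WT replicate 1) was without overlap. Guca2b was highest in WT replicate 1, as the sum of the enterocyte markers was, and whether it marks the ileum was not tested. In WT replicates 1 and 3 Guca2b, at 1953 and 880 TPM, was the largest part of the sum, above Fabp6 at 1168 and 735 TPM. The sum is therefore not a measure of ileal content alone. Of 4 colon markers that passed the filter, 3 were above 0 and 2 of these without overlap. Mptx1 had the most positive value of them, at 3.29, 1.96 and 8.9 TPM in WT and 16.6, 12.8 and 24.8 TPM in the libraries labelled Mtg16−/− (log2 FC 1.88 ± 0.43, adjusted p = 0.225). Hoxb13 was listed at 0 throughout. Guca2b and Mptx1 were singled out after their values were seen.

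On the side of the members that were higher, the 8 crypt base stem cell markers, led by Olfm4, were all above 0, 4 of them without overlap (9.94% of all tested genes), and summed to 897, 1391 and 1528 TPM in WT and 1646, 2189.96 and 1867 TPM in the libraries labelled Mtg16−/−. The 8 Paneth cell markers, led by Defa24, summed to 9723, 22306 and 12967 TPM in WT and 34295, 27046 and 27320.1 TPM in the libraries labelled Mtg16−/−, and 5 of them were higher without overlap. In both lists WT replicate 1 was the lowest library and the libraries labelled Mtg16−/− were above all WT libraries. The median log2 FC was 0.51 for the stem cell list (0.31 without WT replicate 1) and 0.99 for the Paneth list (0.68 without it). Olfm4 made up most of the stem cell sum in each library. The 8 enteroendocrine markers, led by Gip, were all above 0, 5 of them without overlap, and summed to 449, 374 and 367 TPM in WT and 524, 498 and 581 TPM in the libraries labelled Mtg16−/−. Goblet cell markers, led by Zg16, were below 0 for 5 of 7, with 2 of these without overlap (11.1% of all tested genes), and summed to 11804, 10009 and 7264 TPM in WT and 9087, 6575 and 6454 TPM in the libraries labelled Mtg16−/−. Every library labelled Mtg16−/− was above every WT library for the enteroendocrine sum, but not for the goblet one. Tuft cell markers, led by Avil, were below 0 for all 5 that passed the filter and summed to 43.5, 36.9 and 75.96 TPM in WT and 29.7, 37.1 and 39.4 TPM in the libraries labelled Mtg16−/−. The 8 proliferation markers, led by Pcna, summed to 599, 827 and 826 TPM in WT and 699.9, 854 and 859.7 TPM in the libraries labelled Mtg16−/−, with overlap, and their median log2 FC was 0.10, or -0.092 without WT replicate 1.

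Of cells outside the epithelium, immune cell markers, led by Cd74, summed to 1374, 897 and 1398 TPM in WT and 1601, 1721 and 529 TPM in the libraries labelled Mtg16−/−. Cd74 made up most of this sum, whereas 6 of 7 tested markers were below 0, all with overlap (median log2 FC -0.50, -0.30 without WT replicate 1). Fibroblast markers, led by Col3a1, summed to 2.37, 4.2 and 1.83 TPM in WT and 4.62, 4.8 and 2.86 TPM in the libraries labelled Mtg16−/−, with Lum listed at 0. These stromal genes were close to the lower limit of the table. Smooth muscle markers, led by Myh11, summed to 5.14, 4.26 and 1.34 TPM in WT and 3.49, 3.62 and 3.19 TPM in the libraries labelled Mtg16−/−, and endothelial ones, led by Lyve1, to 6.52, 5.63 and 4.41 TPM in WT and 5.66, 3.98 and 3.12 TPM in the libraries labelled Mtg16−/−. The adipocyte markers Adipoq, Lep, Retn, Cfd and Plin1 were listed at 0 in all 6 libraries, and Cidec, the other gene of that list, had the values given above.

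Genes of the citric acid cycle, which burns the acetyl-CoA from β-oxidation, were compared as another mitochondrial group. Of 16 citric acid cycle genes, led by Mdh2, 12 were below 0, 4 of them without overlap, and 4 were above 0, of which Suclg2 was without overlap (median log2 FC -0.14), and their sum was 6305, 4657 and 5584 TPM in WT and 4609.8, 4103 and 4555 TPM in the libraries labelled Mtg16−/−. Of the 16 members in the dehydrogenase, hydratase and auxiliary groups of β-oxidation, 12 were above 0, 4 of them without overlap, and 4 were below 0, all with overlap (median log2 FC 0.13, 0.22 without WT replicate 1). Of all tested genes 9.94% were higher and 11.1% lower without overlap, and whether the 2 groups of genes differ was not tested. Immediate early genes, led by Ier2, were below 0 for 6 of 7 and summed to 305, 196 and 233 TPM in WT and 225, 199 and 146 TPM in the libraries labelled Mtg16−/−. Their median log2 FC was -0.47, or -0.24 without WT replicate 1, where Fosb was not tested.

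PPARs bind DNA as dimers with retinoid X receptors, at 2 copies of the half-site AGGTCA in the same direction with 1 base between them (DR1). RefSeq promoter windows in GRCm38.p6, from 250 bases before to 50 bases after a transcription start, were found for 33 of the 38 members and searched on both strands. No member's window held DR1 exactly or with 1 mismatch over its 12 fixed bases, and across all 27025 genes with a window 0.0481% and 0.644% did. With up to 2 mismatches it was found for 5 members (15.2%), against 4.40% of all genes: Creb3l3, Echs1, Etfa, Plin2 and Slc25a20. The half-site alone was found for 7 members (21.2%), against 18.1% of all genes. A match is a description of letters and not a bound site, and sites outside these windows were not searched.

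Stretches before the transcription start are shown for 4 of these members and for Fabp1, whose window held the 1 match with a single mismatch among the other pathway genes, so that the match can be read beside the values above. They run 5′ to 3′ on the strand of the gene, and capitals mark the 13 bases of the match. The stretches are chr10:81092758-81092830 (minus strand, from a start inside the gene), chr4:86670242-86670309 (minus, also from a start inside the gene), chr7:140116462-140116534 (minus), chr9:55512278-55512350 (minus) and chr6:71199782-71199854 (plus). In Plin2, Etfa and Fabp1 the match lies on the opposite strand and therefore reads as its reverse complement.
Creb3l3: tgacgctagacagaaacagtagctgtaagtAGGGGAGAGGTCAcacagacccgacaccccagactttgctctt
Plin2: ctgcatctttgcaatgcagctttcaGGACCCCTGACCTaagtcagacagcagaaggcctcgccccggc
Echs1: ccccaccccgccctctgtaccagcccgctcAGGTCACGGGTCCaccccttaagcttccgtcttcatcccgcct
Etfa: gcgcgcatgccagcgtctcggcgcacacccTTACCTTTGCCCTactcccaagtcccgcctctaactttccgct
Fabp1: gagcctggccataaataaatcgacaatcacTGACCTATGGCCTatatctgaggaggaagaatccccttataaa
The 5 genes did not share a direction. Creb3l3 (log2 FC -1.19) and Fabp1 (-1.99) were lower without overlap, Echs1 (0.30) was higher without overlap, and Etfa (0.18) and Plin2 (-0.21) overlapped between genotypes.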

How the data were processed

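Total RNA of intestinal crypts from 3 WT and 3 Mtg16−/− mice was sequenced, 1 library per mouse. The authors deposited gene-level TPM values from RSEM. The submitters' processing notes name cutadapt 1.9.1, STAR 2.5.2a, RSEM 1.3.0, DESeq2 1.12.3 and the mm10 build. TPM keeps no record of depth, so the depth of each library is unknown and no counting interval is given. Libraries were grouped by their labels, and no library was left out.

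Genes with a mean of at least 1 TPM over the 6 libraries (12268 of 24736) were fitted with limma 3.58.1 in R 4.3.3 on log2(TPM + 1), with an intensity trend and Benjamini-Hochberg adjustment over all tested genes; the script was tested on simulated data. The added 1 makes differences of low genes look smaller than they are. For single members, an exact permutation test of both sides was run too (scipy 1.17.1). Members and lists were chosen with earlier results of these data known. Values in every library were given for the member with the highest mean TPM of each role, the 6 most negative and 4 most positive log2 fold changes, and Ppara, Cpt1a, Hadh, Pdk4, Angptl4 and Plin2; other pathway genes were named for the 5 most negative and 3 most positive values, with Cd36 and Cyp4a10. Some genes that this rule takes in, and the summed level of 1 context list, are not reported here. Context lists cover epithelial, immune, stromal and adipocyte markers, gut regions, the citric acid cycle and immediate early genes; transcripts of the mitochondrial genome were not analysed here.

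Coordinates and promoter windows are from RefSeq (GRCm38.p6), matched by symbol for all 38 members. Shared 50-base windows were counted in GENCODE transcripts, and whether these match the transcripts given to RSEM was not checked. Alternatives were a pseudocount of 0.1, no filter, a minimum of 5 TPM, median-ratio and quantile scaling, no trend, the replicate number as a block, an adjusted p under 0.05, and each library left out.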

Additional observations from a re-analysis of the deposited data

How the results depend on the processing

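No member was called in limma under any alternative except the fit with the replicate block. With the replicate block, 1201 genes were called in place of 4, and 7 members in place of 0 (Esrra, Creb3l3, Acsl5, Acads, Eci2, Acaa1b and Angptl4; 18.4% of members against 9.79% of all genes). Members at an unadjusted p under 0.05 were then 11 lower and 7 higher, against 14.1% and 8.52% of all tested genes. The labels give the replicates only a number, and do not tell whether same-numbered mice were related or handled together. Deviations of same-numbered libraries correlated at 0.43, 0.075 and 0.24 for numbers 1, 2 and 3. All 3 libraries labelled Mtg16−/− correlated best with the WT library of their own number. Of the 3 WT libraries 2 correlated best with the library of their own number, and WT replicate 2 correlated best with replicate 3 labelled Mtg16−/− (0.20). Not all 3 same-number values passed the limit of 0.1, so the main fit was not paired.

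Genes called were 15 at a minimum of 5 TPM, where fewer genes were tested, 1 after median-ratio and 1 after quantile scaling, and 0 without a filter, without a trend or at an adjusted p under 0.05. They ranged from 0 to 40 with each library left out. Under quantile scaling 4 members were lower at an unadjusted p under 0.05 in place of 7 (6.68% of all tested genes in place of 8.05%), and leaving out each library gave 2 to 9 lower and 2 to 5 higher members (4.07% to 9.78% and 3.44% to 6.78% of all tested genes). The cause was not tested. The median log2 FC of members stayed between -0.13 and 0.075. Quantile scaling turned the sign of Acadl, Acadvl, Etfb, Hadha and Acaa1a, none of them at an unadjusted p under 0.05. The unknown depth limits what can be said of genes near 1 TPM such as Pdk4.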

Other observations

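Genes of branched-chain amino acid breakdown were added as a list after the values of Ivd and Acadsb had been seen, and this list was not tested. Of its 22 genes, 20 were above 0, 10 lay higher in every library labelled Mtg16−/− than in every WT library (9.94% of all tested genes did so), and none lay lower without overlap, with a median log2 FC of 0.30 (0.22 without WT replicate 1) against -0.026 for all tested genes. In the main fit limma called 0 of the 22 at an adjusted p under 0.1, and 7 were higher at an unadjusted p under 0.05 (6.53% of all tested genes). Calls of this list with the replicate block, where 9.79% of all genes were called, are not given here. The list shares Ivd, Acadsb, Acad8, Hsd17b10 and Acat1, among others, with the pathway genes described above. Bckdha, a subunit of the branched-chain ketoacid dehydrogenase, was at 20.9, 23.8 and 33.8 TPM in WT and 39.8, 37.2 and 39.0 TPM in the libraries labelled Mtg16−/− (log2 FC 0.57 ± 0.18, adjusted p = 0.272). Its partner subunit Bckdhb was at 7.35, 8.61 and 11.1 TPM in WT and 12.7, 14.0 and 14.7 TPM in the libraries labelled Mtg16−/− (log2 FC 0.58 ± 0.17, adjusted p = 0.263). Every library labelled Mtg16−/− was above every WT library for both. Without WT replicate 1 the log2 FC was 0.43 for Bckdha and 0.46 for Bckdhb. Auh, a hydratase of leucine breakdown, was at 20.8, 19.1 and 27.4 TPM in WT and 29.3, 32.9 and 33.6 TPM in the libraries labelled Mtg16−/− (log2 FC 0.51 ± 0.16, adjusted p = 0.272).

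Peroxisome biogenesis, also looked at after values were seen, was mixed. Of its 16 tested genes, 7 were above 0 and 9 below, with a median log2 FC of -0.10 (-0.051 without WT replicate 1). Without overlap were 2 on the higher and 4 on the lower side (9.94% and 11.1% of all tested genes). At an unadjusted p under 0.05 there were 1 higher and 2 lower (6.53% and 8.05% of all tested genes). Pex11a, also one of the other pathway genes, had the most negative value and was lower without overlap (log2 FC -0.46 ± 0.16, -0.33 without WT replicate 1, adjusted p = 0.286). Pex3, a receptor for peroxisomal membrane proteins, was at 12.6, 10.3 and 10.4 TPM in WT and 13.7, 13.9 and 15.9 TPM in the libraries labelled Mtg16−/− (log2 FC 0.36 ± 0.14, adjusted p = 0.315). Pex14, a docking protein of the import machinery, was at 29.4, 31.1 and 30.9 TPM in WT and 26.9, 23.9 and 23.8 TPM in the libraries labelled Mtg16−/− (log2 FC -0.28 ± 0.12, adjusted p = 0.322).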
